A study of Mus musculus with 96 samples.

Results

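Gata1-high Multi-Lin-1 cells are 7 single bone marrow progenitors of ThPOK-/- mice that carry Gata1 transcripts at 30 TPM or more (TPM, a length-scaled share of a cell's transcripts), set here against the 19 Gata1-low cells of the same state that lie under that value. They were chosen in 2 steps: the authors' annotation gives the state Multi-Lin-1 to 26 of the 96 knockout cells, and those 26 were split by their Gata1 level. All cells of both groups came from the marrow of C57BL/6 mice that lack ThPOK, the transcription factor encoded by Zbtb7b. The marrow was enriched with CD117 beads, the GMP (granulocyte-monocyte progenitors) were sorted, and cDNA of single cells was made on a Fluidigm C1 chip. The labels name no animal, age or sex, so the 7 and the 19 cells are parts of 1 sample, spreads are over cells, and no test between the groups was made. Cell names carry a number, 78 or 79, whose meaning is not given. The Gata1-high group holds 2 cells numbered 78 and 5 numbered 79, and the Gata1-low group 9 and 10.

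GATA1 is a zinc finger protein encoded on the X chromosome that binds the letters GATA in DNA and switches on the genes of red cells, megakaryocytes, mast cells, basophils and eosinophils. It works with cofactors such as FOG1 (Zfpm1), TAL1, LMO2 and LDB1. Its relative GATA2 acts earlier, in stem and multipotent progenitors, and stays on in mast cells and basophils. GMP are best known as the source of neutrophils and monocytes, whose early stages make the azurophil granule proteins, myeloperoxidase and elastase among them.

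The groups overlapped in genes detected. Genes detected at 1 TPM or more ran from 1660 to 3933 with a median of 3342 in the 7 Gata1-high cells, and from 1947 to 3973 with a median of 2939 in the 19 Gata1-low cells. Zbtb7b itself was at 1 TPM or more in 1 of 7 Gata1-high cells, at 2.12 TPM, and in 1 of 19 Gata1-low cells, at 1.04 TPM. Which part of the gene was deleted is not stated, so these values are no check of the genotype. The cell with the fewest genes detected, cell 11, also has the most Gata1. Gata1-low cell 94 stood apart: the mean log2(TPM + 1) over 83 ribosomal protein genes was 6.2 there, against a median of 10.34 over the 19 Gata1-low cells. Its removal is given with the other settings.

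Gata1 was at 3288 TPM in cell 11, 2045 in cell 70, 619.7 in cell 25, 539.6 in cell 77, 413 in cell 82, 355 in cell 68 and 277 in cell 52. Among the 19 Gata1-low cells it was listed at 0 in 9 and at 1 TPM or more in 6, with a median of 0.42 TPM and a highest value of 10.04 TPM in cell 28. These values chose the groups and are a description. The step between the lowest Gata1-high cell at 277 TPM and the highest Gata1-low cell at 10.04 TPM holds no cell, so any threshold between them gives the same groups.

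**Figure D1:**
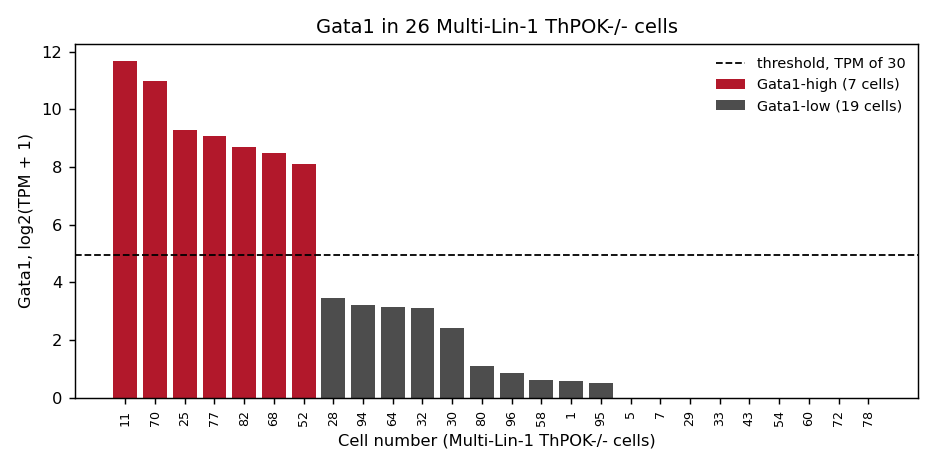
Gata1 level, as log2(TPM + 1), in each of the 26 Multi-Lin-1 ThPOK-/- cells, one bar per cell, Gata1-high cells left and Gata1-low cells right, with the threshold of 30 TPM as a dashed line. The 7 Gata1-high cells lie at 277 TPM or more and the 19 Gata1-low cells at 10.04 TPM or less.

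Gata1 at 30 TPM or more was found in 7 of 26 Multi-Lin-1 cells (26.9%, 95% Clopper-Pearson interval 11.6 to 47.8%). It was found in 17 of the 27 cells to which the authors give no state (63%, 42.4 to 80.6%), in 3 of 31 cells of the state IG2 (9.68%, 2.04 to 25.8%) and in 0 of 12 of the state proNeu-1 (interval up to 26.5%). The intervals cover the counting of cells only. The highest Gata1 level was 115 TPM in IG2 and 1.13 TPM in proNeu-1, both under the lowest of the 7 Gata1-high cells.

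The deposited splicing values come from the same reads and are no second measurement of the level. They give the percent spliced in (PSI) of an event as a fraction, the share of reads that use one junction rather than its alternative. Gata1 (ENSMUSG00000031162, chrX:7959260-7978071, minus strand, GRCm38) had PSI values in 7 of 7 Gata1-high cells and in 0 of 19 Gata1-low cells. The junction from exon 2 to exon 3 of the transcript Gata1-201 (X, 7962548 to 7963003) had a PSI of 1 in all 7 Gata1-high cells against a site inside the intron. The choice of first exon had values in 6 of the 7. In 5 of these, cells 25, 68, 70, 77 and 82, the PSI was 1 for the junction from exon 1 of Gata1-201 (7967767 to 7967910). In cell 11, the cell with the most Gata1, it was 0, and 1 for the junction from exon 1 of Gata1-203 (7963959 to 7964166), which starts further downstream. So 1 of 6 Gata1-high cells with a value read the downstream exon, as did 1 of 8 cells without a state that had a value. Junction read numbers are not given, so a PSI of 0 or 1 may rest on few reads.

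Gata2 did not follow Gata1. It ran from 9.50 to 569 TPM with a median of 263 in the 7 Gata1-high cells, and from 0 to 4321 TPM with a median of 211 in the 19 Gata1-low cells. The mean log2(TPM + 1) was 7.42 ± 1.93 (SD, n = 7 cells) in Gata1-high and 7.16 ± 2.96 (n = 19) in Gata1-low cells, a difference of 0.26 that is far under either SD and that turns to -0.03 without cell 70 and -0.14 without Gata1-low cell 94. The groups overlap in full, and the highest Gata2 of all 26 cells was in a Gata1-low cell. In cells without a state, the same split gave a Gata2 difference of 3.21.

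Differences between the groups are given as mean log2(TPM + 1) in Gata1-high minus mean log2(TPM + 1) in Gata1-low cells, and a gene was counted as higher or lower where this was 2 or more in size. Of 4787 genes at 1 TPM or more in at least 6 of the 26 cells, 363 (7.58%) were higher in Gata1-high cells and 216 (4.51%) were lower. For 287 of the 363 and 201 of the 216 the sign was the same within cells numbered 78 and within cells numbered 79. These cells also gave the difference itself, so such agreement is in part built in, and only 2 Gata1-high cells are numbered 78. The share over all 4787 genes was not taken. A difference above 0 was found for 2542 of the 4787 (53.1%), and the groups overlapped for all 4787. The median difference of all genes was 0.09.

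Of the 20 GATA factors and cofactors listed, 11 were compared and 0 were higher or lower by 2, against 12.1% of all genes. Their median difference was 0.09, the same as that of all genes. Zfpm1, which encodes FOG1, the main partner of GATA1, reached 1 TPM in 2 of 7 Gata1-high cells, at 8.2 TPM in cell 68 and 2.93 TPM in cell 25, and in 0 of 19 Gata1-low cells. Tal1 averaged 1.49 ± 2.35 in Gata1-high and 2.64 ± 3.41 in Gata1-low cells. Lmo2 averaged 4.49 ± 3.40 in Gata1-high and 5.40 ± 2.91 in Gata1-low cells, and Nfe2, a factor of red cells and megakaryocytes, averaged 4.56 ± 3.86 in Gata1-high and 5.97 ± 3.53 in Gata1-low cells. Klf1, a main red cell regulator, was at 299.6 TPM in cell 70 and under 1 TPM in the other 6 Gata1-high cells, against at most 2.14 TPM in Gata1-low cells.

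Genes of mast cells and basophils held the largest differences of the listed lineages. Of 20 listed genes 11 were compared. Of these 4 were higher by 2 (against 7.58% of all genes), namely Ms4a2, Lmo4, Hdc and Cpa3, and 0 were lower. Their median difference was 1.03, and 10 of the 11 were positive. The median was 1.92 without cell 70 and 1.57 without cell 82, 2.01 within cells numbered 78 and 1.54 within cells numbered 79. Without cell 82, Cpa3 came under 2 (1.57), as it did without cell 11 (1.75), and Hdc came under 2 without cell 52 (1.98). The mean of the list in a cell ran from 1.49 to 4.37 log2 units in the Gata1-high cells and from 0.79 to 3.74 in the Gata1-low cells, so the groups overlap.

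Ms4a2 (ENSMUSG00000024680, chr19:11615523-11623719, minus strand, GRCm38) encodes the beta chain of the high-affinity IgE receptor. It was at 710 TPM in cell 11, 0 in cell 70, 278 in cell 25, 297 in cell 77, 1435 in cell 82, 0 in cell 68 and 1044 in cell 52 of the Gata1-high group. The Gata1-low cells ran from 0 to 543 TPM with a median of 0.27. The gene was thus listed at 0 in 2 Gata1-high cells and at 30 TPM or more in 5 of 7, against 4 of 19 Gata1-low cells. It averaged 6.62 ± 4.60 in Gata1-high and 2.17 ± 3.15 in Gata1-low cells, a difference of 4.45 that is close to the SD.

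Hdc (ENSMUSG00000027360, chr2:126593667-126619299, minus strand) encodes the enzyme that makes histamine from histidine. It split the Gata1-high cells in a like way, with 416 TPM in cell 11, 245 in cell 25, 1030.4 in cell 82 and 2264 in cell 52, against 0.6 TPM or less in cells 70, 77 and 68. The Gata1-low cells ran from 0 to 1905 TPM with a median of 0.54, and 4 of 19 were at 30 TPM or more. The difference was 2.91, with means of 5.55 ± 4.97 in Gata1-high and 2.64 ± 3.95 in Gata1-low cells.

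Cpa3, the carboxypeptidase of mast cell granules, was on in more cells of both groups. It ran from 5.67 to 5854 TPM with a median of 696 in Gata1-high cells and from 0 to 2920 TPM with a median of 369 in Gata1-low cells, and was at 30 TPM or more in 6 of 7 Gata1-high and 12 of 19 Gata1-low cells. The difference was 2.24. Lmo4, a LIM-only cofactor gene, ran from 0.88 to 1276 TPM with a median of 423 in Gata1-high and from 0 to 680 TPM with a median of 10.07 in Gata1-low cells, a difference of 4.19.

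Ms4a2, Hdc and Cpa3 were at 30 TPM or more together in 4 of 7 Gata1-high cells (57.1%), cells 11, 25, 52 and 82, and in 1 of 19 Gata1-low cells (5.26%). That Gata1-low cell is cell 28, which has the most Gata1 of the 19, at 10.04 TPM. Gata1-low cells 64 and 80 had Hdc at 10.23 and 10.90 and Cpa3 at 11.44 and 10.41 on the log2(TPM + 1) scale. Their Ms4a2, at 4.83 and 4.63, lay under 30 TPM, so they were not counted. Among cells without a state, 8 of 17 with Gata1 at 30 TPM or more (47.1%) and 1 of 10 under it (10%) had all 3. Ms4a2 and Cpa3 were at 30 TPM or more together in 4 of 7 Gata1-high (57.1%) and 4 of 19 Gata1-low cells (21.1%). For cells without a state these counts were 9 of 17 (52.9%) and 3 of 10 (30%). Both sets of genes were picked after their values were seen.

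The other members of the list were less different. Il1rl1, the IL-33 receptor gene, was higher by 1.99, Fcer1g, the common Fc receptor gamma chain gene, by 0.997, and Srgn, the core protein of granule proteoglycans, by 0.77. Mcpt8, a basophil protease gene, reached at most 3.71 TPM in Gata1-high cells, against 767 TPM in Gata1-low cells, with a difference of -0.58. Several genes of mature mast cells and basophils had no level here: Fcer1a, Cma1, Tpsb2, Tpsab1, Mcpt4, Mitf and Cyp11a1 were listed at 0 in all 26 cells. A listed 0 is not proof of absence. Of the 83 ribosomal protein genes, 3 were also listed at 0 in all 26 cells, and whether cells of the marrow express those 3 was not checked.

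**Figure D2:**
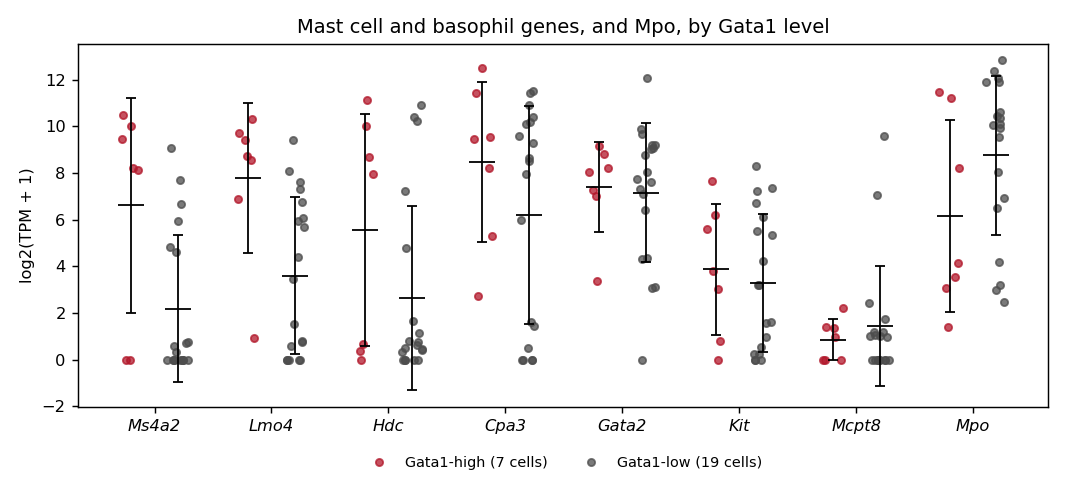
Level, as log2(TPM + 1), of 7 mast cell and basophil genes and of Mpo in single cells, Gata1-high (7 cells) left and Gata1-low (19 cells) right for each gene, with the mean and SD over cells in black. Ms4a2 and Lmo4 have the widest shift toward high values in Gata1-high cells, Gata2 and Kit overlap in full, and Mpo is lower.

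The sequence just upstream of these genes is shown because GATA1 binds DNA through GATA letters. RefSeq (GRCm38.p6) gives, in the 250 bases before its transcript start, with the letters AGATAA and AGATAG, as well as TGATAA and also TGATAG, on either strand in capitals, the following for Gata1 (chrX:7967911-7968160), Ms4a2 (chr19:11623720-11623969), Hdc (chr2:126618679-126618928) and Cpa3 (chr3:20242182-20242431), all on the minus strand and printed 5′ to 3′ toward the start. For Gata1 and Hdc the GENCODE gene span given above reaches further upstream than this start.
Gata1: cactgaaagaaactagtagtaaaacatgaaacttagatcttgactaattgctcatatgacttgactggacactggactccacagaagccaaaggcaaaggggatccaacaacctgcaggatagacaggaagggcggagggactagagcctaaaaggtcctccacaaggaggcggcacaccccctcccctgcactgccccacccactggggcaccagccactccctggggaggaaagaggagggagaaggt
Ms4a2: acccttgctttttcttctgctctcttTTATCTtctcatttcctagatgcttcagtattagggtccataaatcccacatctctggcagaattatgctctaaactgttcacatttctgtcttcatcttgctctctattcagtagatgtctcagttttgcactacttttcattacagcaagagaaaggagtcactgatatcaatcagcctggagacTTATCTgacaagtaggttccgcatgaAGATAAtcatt
Hdc: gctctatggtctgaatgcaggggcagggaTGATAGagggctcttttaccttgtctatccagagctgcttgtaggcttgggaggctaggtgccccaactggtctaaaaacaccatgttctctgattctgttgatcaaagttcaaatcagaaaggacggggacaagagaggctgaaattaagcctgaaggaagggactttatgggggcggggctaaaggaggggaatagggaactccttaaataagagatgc
Cpa3: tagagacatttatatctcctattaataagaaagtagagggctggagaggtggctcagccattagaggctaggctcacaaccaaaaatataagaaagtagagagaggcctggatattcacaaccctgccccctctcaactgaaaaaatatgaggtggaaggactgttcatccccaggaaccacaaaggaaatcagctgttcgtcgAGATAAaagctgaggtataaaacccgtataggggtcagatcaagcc

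Ms4a2 had 3 such matches, from 224 to 219, from 37 to 32 and from 11 to 6 bases before its start. Cpa3 had 1, from 46 to 41 bases before its start, and Hdc 1, from 221 to 216. The window of Gata1 had 0. Of all 32851 promoter windows of this length 8718 (26.5%) held a match. Counted by gene the share was 29.7% of 27025 genes, and 11 of the 18 mast cell and basophil genes with a window had a match (61.1%). A match is a run of letters and not a measured site.

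Few red cell and megakaryocyte genes could be compared, and several were on in 1 or 2 Gata1-high cells each. Of 29 red cell genes in the expression data 4 were compared and 1, Blvrb, was higher by 2 (2.15, against 7.58% of all genes), while 13 were listed at 0 in all 26 cells, among them the alpha globin genes Hba-a1 and Hba-a2, the haem enzyme Alas2 and the membrane protein Slc4a1. The median difference of the 4 was -0.29, and it was 0.45 without cell 11, -1.16 within cells numbered 78 and 0.82 within cells numbered 79, so it has no fixed direction. Blvrb came under 2 without cell 52 (1.23) or cell 77 (1.51). It met the filter of 6 of 26 cells only with its Gata1-high cells, so its difference is in part built in. Car1, a red cell carbonic anhydrase, was at 1334 TPM in cell 77, where Kel, a red cell surface protein gene, was also on at 658 TPM. The highest Car1 in a Gata1-low cell was 0.72 TPM, and Kel was listed at 0 in all of them. Blvrb, biliverdin reductase B, was at 71.1 TPM in cell 77 and 238 TPM in cell 52, against at most 2.07 TPM in Gata1-low cells. Car2, a wider carbonic anhydrase, was at 30 TPM or more in 5 of 7 Gata1-high and 12 of 19 Gata1-low cells.

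Of 20 megakaryocyte genes 5 were compared and 0 were higher or lower by 2, against 12.1% of all genes. Their median difference was 0.64, and it was -0.09 within cells numbered 78. Pf4, a platelet chemokine, was at 1013 TPM in cell 11 and 429 TPM in cell 68 and listed at 0 in the other 5 Gata1-high cells, against 51.4 TPM in 1 Gata1-low cell and 0 in the rest. Itga2b, the platelet integrin alpha chain CD41, was at 201 TPM in cell 68, but the highest value of all was 579.96 TPM in a Gata1-low cell. Vwf, Gp5, Gp6 and Ppbp were listed at 0 in all 26 cells.

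**Figure D3:**
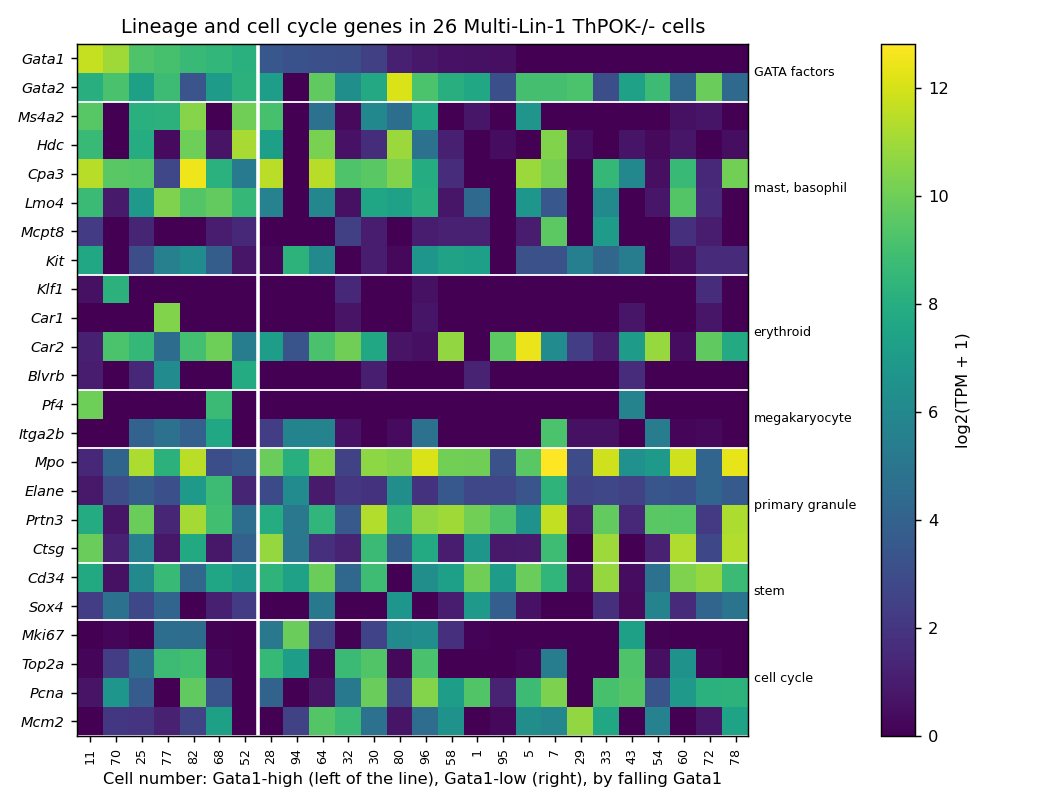
Level, as log2(TPM + 1) on the colour scale, of lineage and cell cycle genes (rows, grouped by list) in the 26 Multi-Lin-1 ThPOK-/- cells (columns, by falling Gata1), Gata1-high left of the white line and Gata1-low right. Ms4a2 and Hdc are high together in cells 11, 25, 82 and 52, Klf1 is high in cell 70, Car1 in cell 77 and Pf4 in cells 11 and 68.

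The 7 Gata1-high cells did not share one set of lineage genes. Cells 11, 25, 52 and 82 carried Ms4a2, Hdc and Cpa3. Cell 70, with the second highest Gata1, had 0 of Ms4a2 and Hdc but 749.5 TPM of Cpa3, 569 of Gata2 and 299.6 of Klf1. Cell 77 had Car1 and Kel beside Ms4a2. Cell 68 had Pf4 and Itga2b beside 443 TPM of Elane, neutrophil elastase. Doublets were not called, and their part in such mixtures was not tested.

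The primary granule genes are the azurophil granule programme of early neutrophil precursors. Of 14 listed genes 10 were compared, 0 were higher by 2 and 1, Mpo, was lower by 2 (against 4.51% of all genes), with a median difference of -0.61. That median was -0.19 without cell 11, -0.24 without cell 70 and -1.17 without cell 82, and Mpo came under 2 in size without cell 11 (-1.81). Mpo (ENSMUSG00000009350, chr11:87793581-87804413, plus strand), which encodes myeloperoxidase, was at 1.67 TPM in cell 11, 16.5 in cell 70, 2393 in cell 25, 298 in cell 77, 2856 in cell 82, 7.36 in cell 68 and 10.5 in cell 52. In the Gata1-low cells it ran from 4.56 to 7225 TPM with a median of 1060.4. So 3 of 7 Gata1-high and 15 of 19 Gata1-low cells were at 30 TPM or more, and the groups overlap. Its mean was 6.15 ± 4.11 in Gata1-high and 8.76 ± 3.40 in Gata1-low cells, a difference of -2.60.

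Prtn3, proteinase 3, had a median of 234 TPM in Gata1-high and 613 TPM in Gata1-low cells, a difference of -1.45 on the log2 scale. Mpo and Prtn3 were at 30 TPM or more together in 2 of 7 Gata1-high cells (28.6%), cells 25 and 82, and in 14 of 19 Gata1-low cells (73.7%). Both of those Gata1-high cells also carried Ms4a2, Hdc and Cpa3. Among cells without a state, Mpo and Prtn3 were together in 5 of 17 with Gata1 at 30 TPM or more (29.4%) and 5 of 10 under it (50%). This pair, too, was picked after its values were seen. Elane was low in both groups, with medians of 7.74 TPM in Gata1-high and 6.46 TPM in Gata1-low cells, and Ctsg, cathepsin G, had medians of 14.4 TPM in Gata1-high and 12.7 TPM in Gata1-low cells.

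Of 23 stem and multipotent progenitor genes 14 were compared, with a median difference of -0.47 that was 0.22 within cells numbered 78. Of the 14, 1 was higher by 2 and 1 was lower, against 7.58% and 4.51% of all genes. A count of 1 in 14 lies near those shares. The 1 higher by 2 was Ikzf2, which encodes the Ikaros family factor Helios, with a median of 88.5 TPM in Gata1-high and 14.2 TPM in Gata1-low cells and a difference of 2.04, which came under 2 without any one of cells 25, 68, 77 and 82 (1.63 to 1.91). The 1 lower by 2 was Gcnt2, a glycan branching enzyme gene, with a difference of -2.39 and a value of 105 TPM in cell 70 as the sole Gata1-high cell at 30 TPM. Cd34 had a median of 114 TPM in Gata1-high and 318 TPM in Gata1-low cells. Kit, the stem cell factor receptor by which the cells were enriched, had medians of 12.8 TPM in Gata1-high and 8.08 TPM in Gata1-low cells. Hlf, a transcription factor gene of stem cells, reached 1 TPM in 1 of 7 Gata1-high and 7 of 19 Gata1-low cells.

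Immediate early genes, which answer outside signals fast, had a median difference of 1.44. Of 13 listed genes 10 were compared and 3 were higher by 2, Egr1 (2.92), Fos (2.77) and Zfp36 (2.10), with 0 lower, against 7.58% of all genes higher. Zfp36 came under 2 without cell 11 (1.35), cell 70 (1.36) or cell 68 (1.70). Fos was on in every Gata1-high cell, from 35.9 to 2765 TPM with a median of 486. In Gata1-low cells it ran from 0 to 4109 TPM with a higher median of 578, and 12 of 19 reached 1 TPM. The means and the medians of Fos thus order the groups differently, with 7 of 19 Gata1-low cells under 1 TPM. Egr1 ran from 6.01 to 1414 TPM with a median of 412 in Gata1-high and from 0 to 1892 TPM with a median of 9.69 in Gata1-low cells. The list mean per cell ran from 3.15 to 5.64 in Gata1-high and from 0.51 to 6.84 in Gata1-low cells.

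Of 22 myeloid transcription factor genes 11 were compared, and 2 were higher by 2 and 0 lower, against 7.58% and 4.51% of all genes. The 2 were Egr1, already counted among the immediate early genes, and Stat3, which relays cytokine signals (3.09). Stat3 was at 30 TPM or more in 4 of 7 Gata1-high and 2 of 19 Gata1-low cells. Spi1, which encodes PU.1, the myeloid factor known to oppose GATA1, was at 30 TPM or more in 2 of 7 Gata1-high cells, at 159.8 TPM in cell 25 and 30.5 in cell 70, and in 3 of 19 Gata1-low cells. Its difference was 0.40. Cebpa, a granulocyte factor gene, reached 30 TPM in 0 of 7 Gata1-high and 1 of 19 Gata1-low cells, and Irf8 was listed at 0 in all 26.

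Of 20 haem and iron genes 10 were compared, with a median difference of 0.50 that was -0.32 within cells numbered 78. Of these 0 were higher by 2 and 1 was lower by 2, against 4.51% of all genes.

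G2/M genes, which serve mitosis, varied widely within the Gata1-high group. Of 20 G2/M genes 18 were compared and 0 were higher or lower by 2, with a median difference of 0.47 that was -0.49 without cell 77 and -0.23 without cell 82. Cell 77 had 16 of the 20 at 30 TPM or more and cell 82 had 14, while each of the other 5 Gata1-high cells had at most 1. In Gata1-low cells the number ran from 0 to 13 with a median of 1. Of 20 S phase genes 15 were compared, 2 were higher by 2, Mcm5 (2.67) and Tyms (2.61), and 3 were lower, Pcna (-2.59), Mcm2 (-2.16) and Fen1 (-2.07). These all serve DNA replication, and all genes gave 7.58% higher and 4.51% lower. The median difference of the 15 was -0.17, and it was -1.64 within cells numbered 78, 0.98 within cells numbered 79 and -1.01 to 0.58 without 1 Gata1-high cell, so it has no fixed direction. Without cell 11, Mcm2 (-1.80) and Fen1 (-1.91) came under 2 in size, as they did without cell 52. The number at 30 TPM or more was 13 in cell 68, 12 in cell 82 and 10 in cell 25, against 1 in cell 11.

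For markers of other marrow cells, list means overlapped between the groups, with the limit on listed zeros given above. The mean over 13 T and NK cell genes ran from 0 to 1.06 in Gata1-high and from 0.07 to 1.6 in Gata1-low cells, with 8 of the 13, Cd3e and Cd3g among them, listed at 0 in all 26. The 1 gene of that list compared was Nkg7, which granule-forming myeloid cells also express, with a median of 722.9 TPM in Gata1-high and 1737 TPM in Gata1-low cells. The mean over 13 B cell genes ran from 0 to 0.69 in Gata1-high and from 0 to 0.66 in Gata1-low cells, with 9 of the 13, Pax5 among them, at 0 in all 26. The mean over 13 late neutrophil genes ran from 0.26 to 1.23 in Gata1-high and from 0.05 to 1.64 in Gata1-low cells, with 9 of the 13, Ltf and Camp among them, at 0 in all 26. The highest mean in a cell over 11 eosinophil genes was 0.66 in Gata1-high and 1.33 in Gata1-low cells, over 17 monocyte genes 1.64 in both groups, over 13 dendritic cell genes 1.19 in Gata1-high and 1.5 in Gata1-low cells, and over 10 stroma and endothelium genes 0.82 in Gata1-high and 0.997 in Gata1-low cells. Few members of these 7 lists were compared: 1 of T and NK cells, 1 of B cells and 3 of late neutrophils. For eosinophils 2 were compared, for monocytes 7, for dendritic cells 4, and for stroma and endothelium 2. None of these differed by 2, against 12.1% of all genes past 2 in either direction. The other members were too low for the filter. Of 10 housekeeping and 79 compared ribosomal protein genes 1 passed the size of 2, Rpl30 (-2.34), which was -0.83 within cells numbered 79. Pseudogenes of Rpl30 may share its reads, which was not tested. Interferon genes gave 0 of 3 past it, with a median of -1.19, and growth factor receptor genes 0 of 7, with a median of 0.58.

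The genes with the largest differences belonged to no listed lineage in most cases. Highest was Srp19, a subunit of the signal recognition particle, at 72.2 to 2673 TPM with a median of 1026 in Gata1-high cells. In Gata1-low cells it ran from 0 to 1121 TPM with a median of 2.15. The gene was on in 7 of 7 Gata1-high and 7 of 19 Gata1-low cells at 30 TPM, and its difference of 5.89 exceeds the SD in Gata1-high (1.65) and in Gata1-low cells (4.08).

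Next among the 15 came Btg2, an antiproliferative gene (5.06), and Tspo, a mitochondrial outer membrane protein (4.84). Pold4, a DNA polymerase delta subunit (4.75), and Cyb5, cytochrome b5 (4.59), followed. Btg2 ran from 0.19 to 2772 TPM with a median of 1186 in Gata1-high and from 0 to 2737 TPM with a median of 0.77 in Gata1-low cells. Tspo ran from 9.24 to 4394 TPM with a median of 676 in Gata1-high and from 0 to 2667 TPM with a median of 1.11 in Gata1-low cells. Each was at 30 TPM or more in 6 of 7 Gata1-high cells, against 8 of 19 Gata1-low cells for Btg2 and 7 of 19 for Tspo, so their groups overlap.

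The others of the 15 largest were Polr1c, a subunit of RNA polymerases I and III (4.57), Nfkbia, the NF-kappaB inhibitor (4.51), Copz1, a coatomer subunit (4.46), Ms4a2, Ifi27 (4.33), Lmo4, Deb1 (4.17), Emg1 and Nop16, both of ribosome making (4.14 and 4.11), and Sf3b3, a splicing factor subunit (4.14). Nfkbia was at 30 TPM or more in 6 of 7 Gata1-high and 4 of 19 Gata1-low cells.

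Lowest was Tex2, a lipid transfer protein gene, listed at 0 in all 7 Gata1-high cells, against 0 to 609 TPM with a median of 67.1 in the 19 Gata1-low cells. Vdac2, a channel of the mitochondrial outer membrane, was at 492 TPM in cell 82 and under 1 TPM in the other 6 Gata1-high cells, against a range of 0 to 1987 TPM and a median of 105 in Gata1-low cells (difference -4.02). Tmem147 gave -3.93, and the respiratory chain genes Uqcc2 and Ndufs7 gave -3.78 and -3.68. Others of the 15 were Spin1 (-3.42), Dpm2 (-3.32), the DNA repair gene Parp1 (-3.30), Trappc6a (-3.29), H2-DMa (-3.26), Pus1 (-3.25), Dtd1 (-3.22), Mier1 (-3.19) and Isy1 (-3.15). Dpm2 and Trappc6a were also listed at 0 in all 7 Gata1-high cells, and Isy1 and Pus1 were under 1 TPM in all 7. Like Tex2, these genes met the filter on detected cells only with their Gata1-low cells, so their differences are in part built in. With 7 cells, 0 of 7 allows a share of up to 40.96% of such cells by the Clopper-Pearson interval. A gene on in few cells can thus be missed. The interval makes no allowance for the choice of these genes by their low values.

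The same differences were then taken in the 27 cells without a state, which the rule did not use: 17 had Gata1 at 30 TPM or more and 10 were under it. They come from the same sample, so this is a second set of cells and not a replicate. Of the 363 genes higher in Gata1-high Multi-Lin-1 cells, 220 (60.6%) had a positive difference there, against 58.4% of all genes, and 30 (8.26%) were higher by 2, against 5.43% of all genes. Of the 216 lower genes, 99 (45.8%) had a negative difference, against 41.6% of all genes, and 9 (4.17%) were lower by 2, against 2.21%. The shares of genes with the same sign lie near those of all genes.

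Among the named genes, Btg2 (2.33), Tspo (2.80), Deb1 (3.53) and Hdc (2.59) were higher by 2 in the cells without a state too. Srp19, which had the largest difference in Multi-Lin-1 cells, was not higher by 2 there. Vdac2 (-3.02), Dpm2 (-2.56) and Isy1 (-2.41) were lower by 2 in both. Ms4a2 (1.91), Lmo4 (1.77), Cpa3 (1.60) and Mpo (-1.43) had the same sign there and were under 2 in size. The 15 largest differences in each direction were taken among genes with the same sign within both label numbers. Of these, 9 of 15 positive ones and 7 of 15 negative ones had the same sign in the cells without a state. The sign was the opposite for 6 of the 15 positive ones, among them Pold4 (-0.69), Cyb5 (-2.16), Ifi27 (-2.27) and Nop16 (-2.22). The mast cell and basophil list had a median difference of 1.65 and the immediate early list 1.35, against 0.20 for all genes.

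**Figure D4:**
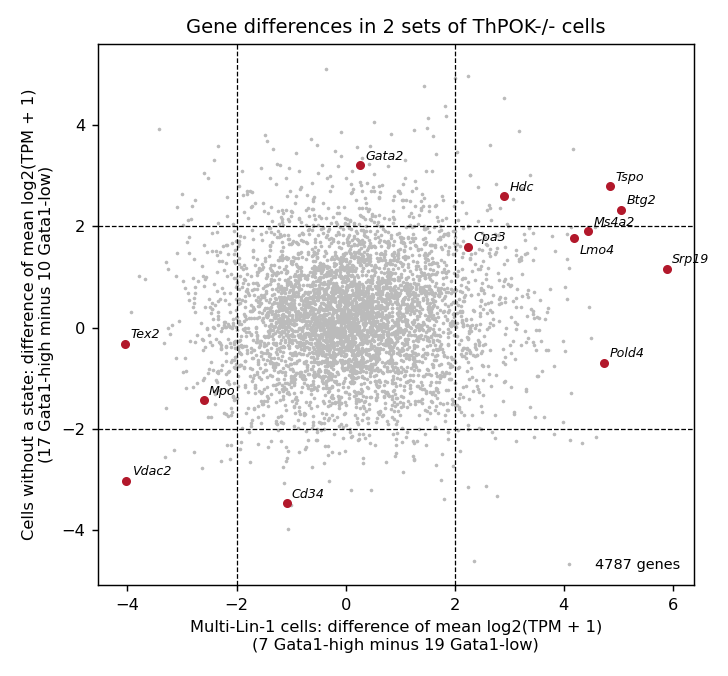
Difference of mean log2(TPM + 1) for 4787 genes (grey points) between Gata1-high and Gata1-low Multi-Lin-1 cells (7 minus 19 cells, horizontal axis) and between cells without a state split at the same Gata1 level (17 minus 10 cells, vertical axis), with named genes in red and dashed lines at 2 and -2. Btg2, Tspo and Hdc lie past 2 on both axes and Vdac2 past -2 on both, while most genes past 2 on the horizontal axis are not past it on the vertical one.

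Of 4787 genes, 35 had a Spearman rank correlation with Gata1 above 0.5 over the 26 cells. The 10 with the highest correlation were taken, as a description. They were Naa60 (0.64), 4932438A13Rik (0.61), D17H6S53E (0.60), Stat6 (0.60), Arhgap1 (0.60), Ndufaf3 (0.59), Flot1 (0.59), Lypla1 (0.59), Prr13 (0.57) and Atp2b1 (0.56). The 26 cells come from 1 sample and vary in genes detected, and 9 of them tie at a Gata1 of 0. Prr13 was at 30 TPM or more in 7 of 7 Gata1-high cells, from 65.5 to 1004 TPM, and in 9 of 19 Gata1-low cells. Arhgap1, a regulator of small GTPases, reached 1 TPM in 5 of 7 Gata1-high cells, with 274 TPM in cell 77 and 206 in cell 11, and in 1 of 19 Gata1-low cells, at 6.17 TPM. Stat6, the transcription factor of IL-4 signals, reached 1 TPM in 5 of 7 Gata1-high and 3 of 19 Gata1-low cells. Gata1 both picked these genes and split the groups, so a difference between the groups is in large part built in. Even so, Atp2b1 differed by 0.47, which was -0.29 without cell 52, and D17H6S53E by 1.16. The others of the 10 passed 2. Arhgap1 and Stat6 also met the filter of 6 of 26 cells only with their Gata1-high cells.

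Splicing outside Gata1 differed at few events. Of 3570 events with a value in at least 4 of the 7 Gata1-high and 8 of the 19 Gata1-low cells, 38 (1.06%) differed by 0.3 or more in mean PSI, 21 higher (0.588%) and 17 lower (0.476%) in Gata1-high cells. The same choice can be listed both ways, once for each junction: the 38 are 27 pairs of junctions, 11 of them listed both ways, so the balance of higher and lower is in part built in. They lie in 20 genes, of which 0 are in the gene lists. The count was 20 without cell 82 and 25 without cell 52, so it rests in part on those cells. The minimum of 4 Gata1-high cells was kept there, so an event can also drop out for too few values.

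The largest was in Rbm8a, an exon junction complex subunit, at an alternative 3′ splice site 3 bases apart from its partner (chromosome 3, junctions from 96630361 to 96630477 and to 96630480). Mean PSI of the first was 0.90 ± 0.17 (n = 4 cells) in Gata1-high and 0.35 ± 0.49 (n = 9) in Gata1-low cells. In Ssr4, a translocon-associated protein gene on chromosome X, the junction from 73787306 to 73788838 was taken at 0.79 ± 0.44 (n = 5) in Gata1-high and 0.29 ± 0.35 (n = 12) in Gata1-low cells. Gnl3, which encodes nucleostemin, included an exon at 0.53 ± 0.55 (n = 4) in Gata1-high and 0.99 ± 0.02 (n = 9) in Gata1-low cells, with values of 0.10, 1, 0 and 1 in cells 25, 77, 82 and 68. In Hsp90aa1 the spliced junction of 1 intron had values of 0.03, 0.07, 1 and 1 in cells 25, 77, 82 and 68, against 0.81 to 1 in 10 Gata1-low cells. Most of these values were 0 or 1 in a cell, and the groups overlap in all 4 genes.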

How the data were processed

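Single-cell RNA-seq of 96 sorted ThPOK-/- marrow cells was used. The authors deposited expression as log2(TPM + 1) for 23955 genes and splicing as PSI, a fraction from 0 to 1, for 80855 events. The submitters' processing notes name Bowtie2, RSEM and STAR with mm9 and mm10, without versions or roles, and the PSI junctions match GRCm38 exon ends. Read depth is unknown. States came from the authors' annotation. Another 1142 splicing columns and 511 annotation entries have no label that ties them to a sample and were not used, so wild-type cells were not analysed here.

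The groups, lists and named genes were chosen with earlier results of these data known. Means of log2(TPM + 1), with the deposited pseudocount of 1, were subtracted for genes at TPM 1 or more in at least 6 of 26 cells, leaving out Gata1. A size of 2 was used, and for PSI 0.3 with values in at least 4 Gata1-high and 8 Gata1-low cells. Named genes were the 15 largest differences each way, the 10 most like Gata1, and members of 21 lists and of 83 ribosomal protein genes. Recovery of set differences was tested on simulated data. No doublet caller was run. A few genes of the lists are not reported here. The labels name no animal, so no p-value is given. Clopper-Pearson 95% intervals cover counting only. The highest correlation between 2 of the 26 cells was 0.61, so no cell was counted as a duplicate. Computations ran in Python 3.11.15 with pandas 2.3.3 and NumPy 2.4.6, intervals in SciPy 1.17.1 and figures in matplotlib 3.10.9.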

Additional observations from a re-analysis of the deposited data

Results flagged for a closer look

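Within the 7 Gata1-high cells, the highest or lowest cell stood far from the next in 15 of 79 measures tested (19%), where chance gives about 1 in 20 for normally distributed values, which values with many zeros are not. The measures share cells and are not independent, and the Gata1 first exon choice counts as 2.

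On the log2(TPM + 1) scale, cell 82 stood apart with low Gata2 (3.39, the next cell at 7.03) and with high Fen1 (5.02), Tmem147 (8.96) and Vdac2 (8.95). Cell 70 stood apart with low Btg2 (0.25) and Lmo4 (0.91) and high Gcnt2 (6.73). Cell 68 stood apart with low Pold4 (0) and Srp19 (6.19) and high Mcm2 (7.27). Cell 77 was highest for Isy1 (0.55) and Pus1 (0.58), both under 1 TPM. Cell 11 had a mean of 0 over the T and NK cell genes, the next cell 0.71, and was the one cell with a PSI of 1 for the first exon of Gata1-203 and of 0 for that of Gata1-201.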

How the results depend on the processing

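The counts of genes higher in Gata1-high cells (363) and of genes lower in Gata1-high cells (216) moved with several settings. With a pseudocount of 10 there were 79 higher and 21 lower, with a size of 3 there were 104 and 21, among cells numbered 78 alone 685 and 1143, and among cells numbered 79 alone 837 higher. A Gata1 threshold of 10 gave 129 lower. Without each Gata1-high cell in turn the counts ran from 361 to 528 higher and from 172 to 295 lower. The 30 of 363 genes also higher by 2 in cells without a state became 2 of 79 with a pseudocount of 10 and 3 of 104 with a size of 3. They became 46 of 685 with Multi-Lin-1 cells numbered 78 alone and 60 of 837 with those numbered 79 alone. All 27 cells without a state were kept in both. Without each Gata1-high cell in turn the number ran from 27 to 38. The share over all genes was not taken in these settings. The mast cell and basophil median of 1.03 was 2.01 in cells numbered 78 and 0.99 to 1.92 without each cell. The 38 splicing events became 1 at a PSI difference of 0.5, 165 with values in at least 3 and 5 cells, and 20 to 39 without each cell. Lypla1 turned to -1.51 in cells numbered 78. Of 54 named genes past 2, 34 came under 2 in at least 1 setting, 27 of them with a pseudocount of 10, and 10 without 1 Gata1-high cell. Without Gata1-low cell 94 there were 333 higher and 250 lower genes, the mast cell and basophil median was 0.965, and Cpa3 (1.90), Ikzf2 (1.84) and Zfp36 (1.92) came under 2. No paired analysis was possible because the labels give no replicate numbers that pair cells. With the label number as a replicate block there were 399 higher and 198 lower genes, the mast cell and basophil median was 1.76, and Fen1 (-1.89) and Rpl30 (-1.84) came under 2. These last 2 settings were chosen after seeing the data. The causes were not tested.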
